A study of Homo sapiens with 12 samples.

Results

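The human mitochondrial chromosome carries 37 genes, and the count table held all 37 of them among its 58735 gene rows, 32966 of which had a count in at least 1 library. They were taken as every row whose symbol starts with MT-, which gave 13 mRNAs, 2 rRNAs and 22 tRNAs. The cells were FDX2-iKO ES2 cells, a human ovarian carcinoma line in which the endogenous FDX2 gene was disrupted and an editing-resistant, HA-tagged FDX2 was supplied from a TetON cassette, so that FDX2 is made only while doxycycline (Doxy) is present. FDX2 is a mitochondrial ferredoxin that passes electrons to the assembly of iron-sulfur clusters. There were 4 groups of 3 libraries: 20% O2 + Doxy, 20% O2 wo Doxy, 3% O2 + Doxy and 3% O2 wo Doxy, where "wo" is without.

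Every group carried the gene disruption and the cassette, and the iKO cells were raised as clones by limiting dilution. Except where it says otherwise, the paper reports the same clone, and it names no other clone for its RNA-seq. The replicates therefore do not cover differences between clones. Cells at 20% O2 were cultured for 6 days with or without Doxy. Cells at 3% O2 were first held for 4 days at 20% O2 and then for 3 days at 3% O2, so the oxygen level and the time in culture cannot be told apart. Doxy belongs to the tetracyclines, which bind bacterial-type ribosomes including that of mitochondria, and it was present in both + Doxy groups and absent from both others. Doxy itself and the FDX2 state therefore cannot be told apart in any comparison of groups with and without it.

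Mitochondrial DNA is transcribed from both strands into long precursors. The heavy-strand transcript starts next to the rRNAs and runs around the circle through 12 of the mRNAs, and the light-strand transcript carries 1 mRNA, MT-ND6. The tRNA genes lie between most of the others, and cutting them out releases the mature RNAs. These then receive short poly(A) tails in human mitochondria. The 13 mRNAs encode core subunits of respiratory complexes I, III, IV and V, and the rRNAs and tRNAs serve the mitochondrial ribosome. MT-ND6 is known as the mRNA that carries little or no tail.

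The libraries were made from poly(A)-selected RNA, so the ends of the mRNAs are shown first. In 6 of the 13 mRNAs the gene stops inside the stop codon, and the tail supplies the missing A residues. The last 15 bases of 4 of these and of 3 genes with a complete codon are given 5′ to 3′ from the GRCh38 chromosome M in the sense of each mRNA, with the stop codon or its encoded part in capitals. The light-strand gene and the most abundant mRNA end in the codons AGG and AGA.
MT-ND1 (chrM:4248-4262, + strand): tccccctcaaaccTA
MT-ND2 (chrM:5497-5511, + strand): tactaataatcttaT
MT-CO3 (chrM:9976-9990, + strand): attgatgagggtctT
MT-CYB (chrM:15873-15887, + strand): tactcaaatgggccT
MT-CO1 (chrM:7431-7445, + strand): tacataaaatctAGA
MT-ND5 (chrM:14134-14148, + strand): ctcctaatcacaTAA
MT-ND6 (chrM:14149-14163, − strand): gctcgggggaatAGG

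Neighboring genes also share bases, which limits how far their counts can be separated. MT-ATP8, which encodes a small membrane subunit of ATP synthase, shares its last 46 bases with the start of MT-ATP6, and these are 22.2% of MT-ATP8 and 6.75% of MT-ATP6. The overlaps of MT-ND4L with MT-ND4 (7 bases) and of MT-ATP6 with MT-CO3 (1 base) are shorter. MT-ATP8 is printed whole because its count in 1 library stood far from the others, and the capitals mark the shared bases.
MT-ATP8 (chrM:8366-8572, + strand): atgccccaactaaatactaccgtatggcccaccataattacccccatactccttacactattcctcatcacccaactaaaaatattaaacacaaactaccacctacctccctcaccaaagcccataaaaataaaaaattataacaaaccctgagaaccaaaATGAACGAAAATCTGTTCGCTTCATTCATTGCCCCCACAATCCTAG

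Libraries held 24958386 to 34313637 counts (median 29621780). FDX2 itself had only 2 to 13 counts per library, so its loss could not be checked in these data. Of the markers looked at, VIM (2210 to 3920 CPM, counts per 1000000 counts) and KRT18 (403 to 639 CPM) were high. KRT8 (51.2 to 127 CPM), CDH2 (49.8 to 75.8 CPM) and PAX8 (5.99 to 18.1 CPM) were lower. CDH1 (0 to 1 counts), EPCAM (0 to 3), WT1 (1 to 8), PTPRC (0 to 2), PECAM1 (0 to 5) and ALB (1 to 6) were at or near 0. The library 3% O2 wo Doxy replicate 1 stood apart by correlation. It reached 0.9724 and 0.9741 with its own group, against 0.9907 or more for every pair without it. By the median chi-square per gene between replicates, other libraries differed more. That median was 2.83 and 2.15 for this library, against 1.70 between the rest of its group. For 3% O2 + Doxy replicate 3 it was 5.24 and 4.09 against 0.731. For 20% O2 + Doxy replicate 1 it was 3.41 and 6.16 against 1.28. Replicate 1 of 3% O2 wo Doxy held 21376 counts of MT-ATP8, and the main results that rest on its group are also given without it.

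Mitochondrial rows took 2.38% to 3.26% of all counts. The share was 2.38%, 2.63% and 2.96% in the 3 libraries of 20% O2 + Doxy (2.66% ± 0.295, mean ± SD) and 3.06%, 3.18% and 3.26% in those of 20% O2 wo Doxy (3.17% ± 0.101). These ranges did not overlap. At 3% O2 the share was 2.69%, 2.87% and 2.55% with Doxy (2.70% ± 0.160) and 3.14%, 2.43% and 2.65% without it (2.74% ± 0.362), and there the ranges overlapped. Without replicate 1 the mean of 3% O2 wo Doxy was 2.54%. The share is given as a description, with no test. In bulk RNA, fewer cells and less RNA per cell cannot be told apart, and a share also depends on all the nuclear counts it is divided by.

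The mRNAs made up most of these counts, at 91.8%, 89.4%, 93.3% and 92.4% of the mitochondrial total in the 4 groups in the order given above. The rRNAs took 0.212%, 0.331%, 0.178% and 0.202% of all counts, in libraries made from poly(A)-selected RNA, although rRNAs are the bulk of mitochondrial RNA in cells. All 22 tRNA rows together held 831 to 2353 counts per library.

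Per kilobase of gene, MT-CO1, the catalytic core of complex IV, had the highest level of the 15 mRNAs and rRNAs in all 4 groups. In 20% O2 + Doxy it stood at 5693 ± 345 CPM per kb (SD, n = 3). MT-CO2 (3178 ± 325), MT-CO3 (3106 ± 374), MT-ND4L (3010 ± 275) and MT-ATP6 (2971 ± 215) followed and did not differ among themselves beyond their spread. The lower end held MT-ND6 at 786.8 ± 61.3, MT-ATP8 at 704 ± 219, MT-ND5 at 571 ± 88.4 and MT-RNR1, the small-subunit rRNA, at 455 ± 40.2 CPM per kb. MT-ATP8 and MT-ATP6 overlap with no tRNA gene between them, as do MT-ND4L and MT-ND4. The levels within each of these pairs are therefore not those of RNAs known to be separate. MT-RNR2, the large-subunit rRNA, lay among the middle mRNAs at 1108 ± 128 CPM per kb, close to MT-ND1 (1207 ± 95.8) and MT-CYB (1211 ± 141). The order among neighbors in the middle changed between groups: MT-CYB was above MT-ND1 in 3% O2 + Doxy (1429 ± 57.7 against 1201 ± 54.6 CPM per kb) and well below it in 20% O2 wo Doxy (1120 ± 31.7 against 1902 ± 48.4).

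**Figure D1:**
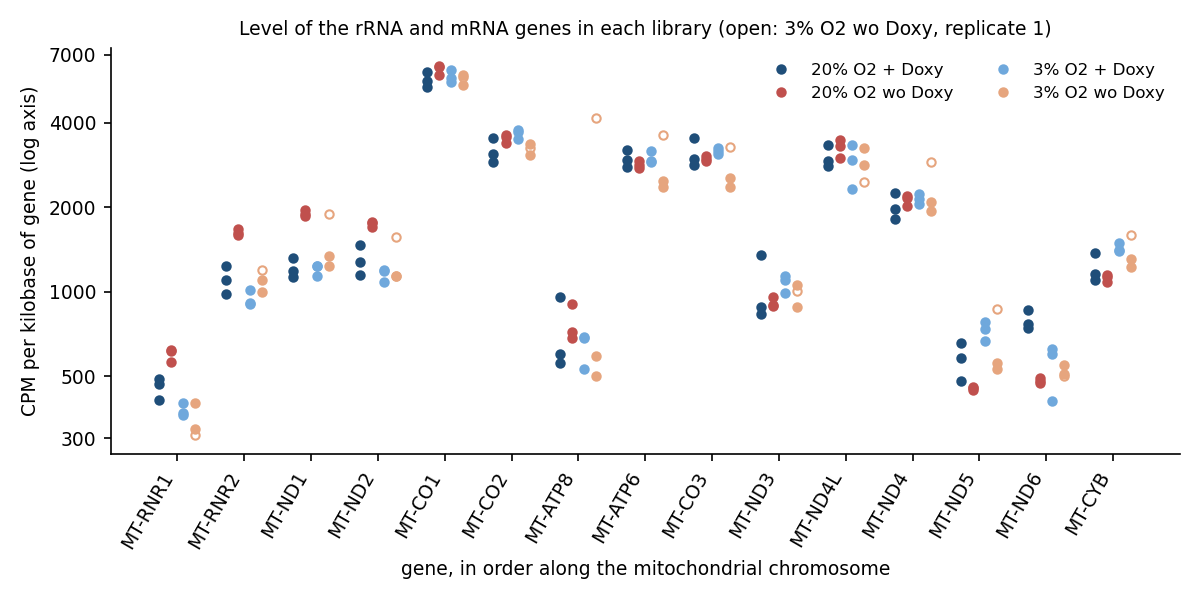
Level in CPM per kilobase of gene (y axis, log scale) of the 2 rRNAs and 13 mRNAs in chromosome order (x axis), with 1 point per library and the library 3% O2 wo Doxy replicate 1 as an open point. MT-CO1 is highest in all groups, and the open point of MT-ATP8 stands far above the other 11 libraries.

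Changes were tested in a model fitted to all 16891 genes that passed a filter on low counts, with edgeR's quasi-likelihood test and a Benjamini-Hochberg adjusted p under 0.05 as the call. All 13 mRNAs, both rRNAs and 16 of the 22 tRNAs passed the filter. The remaining 6 tRNAs were at the floor: MT-TF (0 to 10 counts per library), MT-TD (1 to 6), MT-TK (0 to 12), MT-TH (0 to 13), MT-TL2 (1 to 8) and MT-TR (1 to 44, the 44 in 3% O2 wo Doxy replicate 1). Fold changes below are log2 values with their standard errors (SE).

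The first comparison set 20% O2 wo Doxy against 20% O2 + Doxy, named FDX2 loss at 20% O2 here. Both rRNAs and the mRNAs nearest to them, MT-ND1 and MT-ND2, rose, and the light-strand mRNA MT-ND6 fell. Thus 2 of 13 mRNAs were called higher and 1 lower, with a median log2 change of 0.07 over the 13 (all genes 0.0090). Among all genes tested, 17.6% were called higher and 17.7% lower, so the mRNAs called were no larger a share than the background in either direction.

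MT-ND1 and MT-ND2 encode membrane subunits of complex I. MT-ND1 stood at 1075, 1133 and 1255 CPM with Doxy and 1802, 1783 and 1871 CPM without it, a log2 change of 0.66 (SE 0.130, edgeR adjusted p = 0.002554). MT-ND2 stood at 1191, 1326 and 1529 CPM with Doxy and 1767, 1826 and 1844 CPM without it (0.43, SE 0.120, edgeR adjusted p = 0.01787). For both genes the groups did not overlap. Of all 16891 genes, 4479 were higher without overlap and 4362 lower. The call of MT-ND1 was lost when 20% O2 + Doxy replicates 1 and 2, whose raw files are incomplete per the labels, were left out together (edgeR adjusted p = 0.1215), and that of MT-ND2 was lost without either of them or without any 1 of the 20% O2 wo Doxy libraries.

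MT-ND6, also a complex I subunit, went the other way. It stood at 388.4, 449.5 and 401.3 CPM with Doxy and at 247.4, 251.8 and 258.5 CPM without it, a log2 change of −0.71 (SE 0.129, edgeR adjusted p = 0.0015). The groups were far apart, and the call was kept in all 16 alternative analyses (−0.76 to −0.65). Relative to 100 counts of the 12 heavy-strand mRNAs, MT-ND6 had 1.73, 1.87 and 1.49 counts with Doxy and 0.973, 0.944 and 0.962 without it. How reads were assigned to strands is not given in the sources used here, so reads of MT-ND6 cannot be told apart from reads of the heavy-strand transcript that runs across it.

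The rRNAs were higher in every library without Doxy. MT-RNR2 stood at 1533, 1717 and 1931 CPM with Doxy and 2483, 2514 and 2610 CPM without it (log2 change 0.55, SE 0.0858, edgeR adjusted p = 0.000536), and this call was kept in all 16 alternatives (0.37 to 0.64). MT-RNR1 stood at 391.2, 445.1 and 465.4 CPM with Doxy and 534.6, 589.2 and 584.1 CPM without it (0.39, SE 0.0985, edgeR adjusted p = 0.01001). Its call was lost without 20% O2 wo Doxy replicate 2 or 3, and without 20% O2 + Doxy replicates 1 and 2. Per 100 counts of the 13 mRNAs there were 8.40, 8.85 and 8.74 rRNA counts with Doxy and 11.8, 11.5 and 11.8 without it.

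The other 10 mRNAs did not pass the test. For complex IV, MT-CO1 changed by 0.12 (95% confidence interval 0.0062 to 0.24, edgeR adjusted p = 0.09585), MT-CO2 by 0.15 (−0.0031 to 0.29) and MT-CO3 by −0.06 (−0.31 to 0.18). MT-CYB, the only complex III subunit of the mitochondrial genome, changed by −0.11 (−0.33 to 0.10), and MT-ATP6 of ATP synthase by −0.07 (−0.36 to 0.22). Within complex I, MT-ND3 (−0.17), MT-ND4L (0.11), MT-ND4 (0.07) and MT-ND5 (−0.34, −0.71 to 0.03) were not called either. MT-ATP8 had the widest interval (0.12, −1.29 to 1.53). With a correction for GC content MT-CO1 (0.15, edgeR adjusted p = 0.02345) and MT-CO2 (0.17, edgeR adjusted p = 0.0339) were called higher as well, and both also passed without 20% O2 + Doxy replicate 3. In the other direction, MT-ND5 was called lower in the 6 libraries compared alone (−0.34, edgeR adjusted p = 0.02974) and MT-ND3 without 20% O2 + Doxy replicates 1 and 2 (−0.59, edgeR adjusted p = 0.007342).

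At 3% O2, FDX2 loss gave no call among the 13 mRNAs or the 2 rRNAs by edgeR. At an unadjusted p under 0.05 there were 2 mRNAs higher and 1 lower, beside 2225 and 1676 of all 16891 genes. The Wald test of DESeq2 called 0. By the adjusted p, all genes were called higher in 4.2% and lower in 3.11% of cases. The median over the 13 mRNAs was −0.06 (all genes 0.04), or −0.15 without 3% O2 wo Doxy replicate 1.

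The individual values at 3% O2 show how far replicate 1 without Doxy set them. MT-ND1 stood at 1088, 1179 and 1177 CPM with Doxy and 1812, 1181 and 1277 CPM without it (0.31, SE 0.129, 95% interval 0.026 to 0.59, edgeR adjusted p = 0.1794). The 2 libraries other than replicate 1 lay just above the + Doxy range. MT-ND2 gave 1242, 1230 and 1128 CPM against 1628, 1180 and 1187 CPM and MT-ATP8 142.9, 141.3 and 109.6 CPM against 859.9, 103.7 and 121.6 CPM. Here too, 1 library stood far above the rest. Without replicate 1, MT-ATP6 (−0.31, edgeR adjusted p = 0.02298) and MT-CO3 (−0.37, edgeR adjusted p = 0.02972) were called lower, the change of MT-ATP8 moved from 1.46 to −0.22, and that of MT-ND1 was 0.097.

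MT-ND6 at 3% O2 read 326.9, 314.8 and 214.4 CPM with Doxy and 263.5, 266.9 and 288 CPM without it. The groups overlapped, and the change was −0.06 (−0.35 to 0.22). MT-RNR2 read 1419, 1573 and 1409 CPM with Doxy and 1862, 1555 and 1708 CPM without it (0.22, 0.031 to 0.41, edgeR adjusted p = 0.1528), and it was called higher only with the GC correction among the alternatives run (0.26, edgeR adjusted p = 0.01392). MT-RNR1 read 345.3, 381.9 and 351.1 CPM against 292.9, 308.4 and 382.1 CPM (−0.13, −0.35 to 0.084). The rRNA ranges overlapped between the groups for both genes. Per 100 mRNA counts the rRNAs had 7.005, 7.18 and 6.96 counts with Doxy and 7.37, 8.16 and 8.48 without it.

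The comparison of 3% with 20% O2 in the presence of Doxy called none of the 13 mRNAs and neither rRNA by edgeR. At an unadjusted p under 0.05, 2 mRNAs were higher and 1 lower, beside 1257 and 936 of all 16891 genes. DESeq2's Wald test called 1. By the adjusted p, 1.63% of all genes were called higher and 0.385% lower. The largest change was that of MT-ND6, from 388.4, 449.5 and 401.3 CPM at 20% O2 to 326.9, 314.8 and 214.4 CPM at 3% O2, with no overlap (−0.53, −0.82 to −0.25, edgeR adjusted p = 0.06525). Of all 16891 genes, 1117 were lower without overlap. MT-ND6 passed with DESeq2 (adjusted p = 0.003744), without the filter on low counts, with the GC correction, or without 3% O2 + Doxy replicate 1 or 3. Its change was −0.64 without replicate 1 and −0.37 without replicate 3. MT-CO2 changed by 0.20 (0.055 to 0.35) and passed without 20% O2 + Doxy replicate 3 (0.29, edgeR adjusted p = 0.04123). MT-RNR1 (−0.27, −0.49 to −0.055) and MT-RNR2 (−0.24, −0.42 to −0.047) were not called.

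Without Doxy, lower oxygen was accompanied by lower rRNAs. MT-RNR1 stood at 534.6, 589.2 and 584.1 CPM at 20% O2 and 292.9, 308.4 and 382.1 CPM at 3% O2 (−0.80, SE 0.0991, edgeR adjusted p = 0.000286). MT-RNR2 stood at 2483, 2514 and 2610 CPM at 20% O2 and 1862, 1555 and 1708 CPM at 3% O2 (−0.57, SE 0.0858, edgeR adjusted p = 0.00095). Neither gene's groups overlapped, and 3712 of all 16891 genes were also lower without overlap. Both calls were kept in all 17 alternatives (−0.92 to −0.72 for MT-RNR1 and −0.64 to −0.50 for MT-RNR2). The changes were −0.72 and −0.64 without 3% O2 wo Doxy replicate 1.

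Among the mRNAs, 2 were called higher and 1 lower in the same comparison, beside 13.9% higher and 11.9% lower of all genes. Their median change was −0.0096 (all genes 0.07), or −0.13 without 3% O2 wo Doxy replicate 1. MT-ND5 stood at 825.8, 822.6 and 806.3 CPM at 20% O2 and 1573, 960.2 and 1004 CPM at 3% O2 (0.53, SE 0.169, edgeR adjusted p = 0.0412). MT-CYB stood at 1237, 1307 and 1288 CPM at 20% O2 and 1817, 1396 and 1489 CPM at 3% O2 (0.29, SE 0.0980, edgeR adjusted p = 0.04709). In both genes the groups did not overlap, with replicate 1 highest. Without overlap, 3 of the 13 mRNAs were higher and 3 lower, beside 4631 and 3712 of all 16891 genes. MT-ND2, which fell, went from 1767, 1826 and 1844 CPM to 1628, 1180 and 1187 CPM, again without overlap (−0.44, SE 0.120, edgeR adjusted p = 0.02058).

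These 3 mRNA calls depended on the libraries. Without 3% O2 wo Doxy replicate 1 the calls of MT-ND5 (0.26, edgeR adjusted p = 0.09618) and MT-CYB (0.18, edgeR adjusted p = 0.1382) were lost, and 4 mRNAs were called lower: MT-ND2 (−0.61, edgeR adjusted p = 0.001061), MT-ND1 (−0.57, edgeR adjusted p = 0.0004526), MT-ATP6 (−0.23, edgeR adjusted p = 0.02888) and MT-CO3 (−0.28, edgeR adjusted p = 0.03261). Without any 1 of the 20% O2 wo Doxy libraries no mRNA was called. With DESeq2 size factors only MT-ND2 was called, while MT-ND1 was called lower by DESeq2's Wald test and with the GC correction too. The replicate numbers of these 2 groups paired the libraries by the check used, and with the replicate block 0 mRNAs were called higher and 1 lower, against 0 and 2 with the block in the 6 libraries compared and 2 and 1 when a GC correction was added.

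The test of the difference between the FDX2-loss responses, 3% minus 20% O2, called MT-RNR1 (−0.52, SE 0.139, edgeR adjusted p = 0.04614): its change on FDX2 loss was 0.39 at 20% O2 and −0.13 at 3% O2. That call was lost in 12 of 21 alternatives, among them leaving out any 1 of the libraries of 20% O2 wo Doxy, replicate 1 or 2 of 20% O2 + Doxy or of 3% O2 + Doxy, or replicate 1 or 2 of 3% O2 wo Doxy. None of the 13 mRNAs was called by edgeR, and 2 were called by DESeq2. At an unadjusted p under 0.05, 1 was higher and 1 lower, beside 2083 and 1873 of all 16891 genes. By the adjusted p, 3.21% of all genes were called higher and 4.08% lower. MT-ND6 (0.64, 0.25 to 1.04, edgeR adjusted p = 0.05785) and MT-CO2 (−0.33, −0.54 to −0.12, edgeR adjusted p = 0.06523) were the 2 called by DESeq2, and both were called with the GC correction too. MT-RNR2 (−0.33, −0.60 to −0.068) and MT-ND1 (−0.35, −0.75 to 0.056) were not called. MT-RNR2 passed with the GC correction or without 20% O2 + Doxy replicate 3, and without 3% O2 wo Doxy replicate 1 MT-ND1 (−0.56, edgeR adjusted p = 0.007248) and MT-ND2 (−0.44, edgeR adjusted p = 0.04805) were called.

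Set out along the heavy-strand transcript, the changes were ordered. On FDX2 loss at 20% O2 the log2 change of the 2 rRNAs and 12 heavy-strand mRNAs fell with the distance of the gene from the start of MT-RNR1 (Pearson's r = −0.854 and Spearman's rho = −0.873 across 14 genes). For 3% against 20% O2 with Doxy the relation had the opposite sign (r = 0.767, rho = 0.754), as it did without Doxy (r = 0.67, rho = 0.754, or 0.889 and 0.903 without 3% O2 wo Doxy replicate 1). On FDX2 loss at 3% O2 it was weak (r = −0.122, rho = −0.279, or −0.574 and −0.538 without that replicate). These are descriptions across genes that share 1 precursor and the same libraries, were looked at after the values had been seen, and come from comparisons that share groups. Over the 12 mRNAs alone r was −0.825 on FDX2 loss at 20% O2, −0.224 on FDX2 loss at 3% O2, 0.6 for oxygen with Doxy and 0.473 for oxygen without Doxy (0.828 without 3% O2 wo Doxy replicate 1). Without 20% O2 + Doxy replicates 1 and 2, r for oxygen with Doxy was 0.512 over the 14 genes and 0.345 over the 12 mRNAs.

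The same order can be read from the libraries as a ratio of counts near the promoter to counts far from it. Per 100 counts of MT-ND5 and MT-CYB there were 106.6, 103.5 and 101.2 counts of MT-ND1 and MT-ND2 in 20% O2 + Doxy, and 173.0, 169.4 and 177.4 in 20% O2 wo Doxy. In 3% O2 + Doxy the ratio was 79.8, 77.2 and 82.2, and in 3% O2 wo Doxy it was 101.5, 100.2 and 98.9. Replicates lay close together in each group, including 3% O2 wo Doxy replicate 1, and only 20% O2 + Doxy and 3% O2 wo Doxy overlapped. The ratio was chosen with the values in view and was not tested. Within the rRNAs, MT-RNR1 had 25.2 ± 0.960, 22.5 ± 0.957, 24.5 ± 0.350 and 19.3 ± 3.35 counts per 100 of MT-RNR2 in the 4 groups, with 15.7 in 3% O2 wo Doxy replicate 1.

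**Figure D2:**
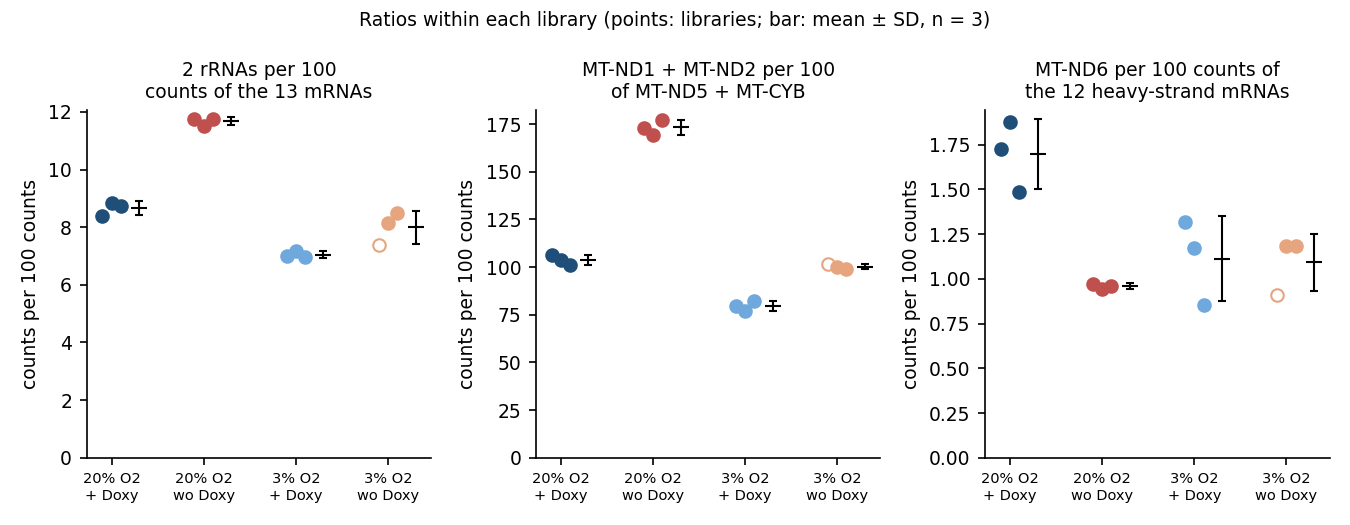
Ratios of counts per library in the 4 groups (x axis): rRNAs per 100 mRNA counts, MT-ND1 and MT-ND2 per 100 counts of MT-ND5 and MT-CYB, and MT-ND6 per 100 counts of heavy-strand mRNAs, with points for libraries (3% O2 wo Doxy replicate 1 open) and bars for mean ± SD (n = 3). In 20% O2 wo Doxy the first 2 ratios are highest, at 11.5 to 11.8 and 169.4 to 177.4, and the third is 0.944 to 0.973 against 1.49 to 1.87 in 20% O2 + Doxy.

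The tRNA rows are 59 to 75 bases long, shorter than a 150-base read, and mature tRNAs carry no long poly(A) tail. Those with the highest mean counts per library were MT-TS1 (serine, 275), MT-TP (proline, 270.8) and MT-TQ (glutamine, 241.2). All 3 are read from the light strand, which gave 82.2% ± 0.653 of tRNA counts in 20% O2 + Doxy, 73.3% ± 0.824 in 20% O2 wo Doxy, 81.5% ± 1.79 in 3% O2 + Doxy and 80.0% ± 0.251 in 3% O2 wo Doxy. Since the strand setting is not given in the sources used here, these counts cannot be told apart from reads of the opposite transcript. The 7 tRNAs called in any comparison are shown whole, in the sense of the tRNA.
MT-TL1, leucine (chrM:3230-3304, + strand): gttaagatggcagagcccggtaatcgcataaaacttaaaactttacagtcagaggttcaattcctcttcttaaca
MT-TM, methionine (chrM:4402-4469, + strand): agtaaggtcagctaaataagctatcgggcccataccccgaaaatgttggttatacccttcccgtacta
MT-TW, tryptophan (chrM:5512-5579, + strand): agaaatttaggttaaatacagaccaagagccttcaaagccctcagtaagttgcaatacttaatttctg
MT-TQ, glutamine (chrM:4329-4400, − strand): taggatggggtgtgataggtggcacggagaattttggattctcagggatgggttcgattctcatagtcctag
MT-TA, alanine (chrM:5587-5655, − strand): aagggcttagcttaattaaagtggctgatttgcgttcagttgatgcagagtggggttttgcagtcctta
MT-TE, glutamate (chrM:14674-14742, − strand): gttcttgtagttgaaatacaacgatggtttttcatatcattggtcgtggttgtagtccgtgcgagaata
MT-TP, proline (chrM:15956-16023, − strand): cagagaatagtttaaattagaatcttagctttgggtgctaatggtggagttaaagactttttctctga

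On FDX2 loss at 20% O2, 2 of the 16 tested tRNAs rose and 3 fell, with a median of −0.16, where 17.6% of all genes were called higher and 17.7% lower, so the tRNA calls were near the background. MT-TL1, which lies between MT-RNR2 and MT-ND1, went from 4.86, 4.74 and 5.17 CPM to 8.88, 7.96 and 9.52 CPM (0.83, SE 0.126, edgeR adjusted p = 0.000453). MT-TP, which is on the light strand, went from 6.995, 8.47 and 8.58 CPM to 12.4, 12.5 and 14 CPM (0.69, SE 0.166, edgeR adjusted p = 0.007649). The 3 that fell, all on the light strand, were MT-TE (from 6.01, 4.92 and 6.93 to 2.18, 2.91 and 3.02 CPM, −1.14, edgeR adjusted p = 0.001443), MT-TA (from 2.49, 2.25 and 2.53 to 0.930, 0.916 and 1.07 CPM, −1.31, edgeR adjusted p = 0.00567) and MT-TQ (from 11.3, 10.5 and 11.5 to 6.38, 6.95 and 6.95 CPM, −0.72, edgeR adjusted p = 0.004721). MT-TE lies directly beside MT-ND6, which fell too. None of these 5 tRNAs overlapped between the groups. Of the 16, 4 were higher without overlap and 4 lower, beside 4479 and 4362 of all 16891 genes. The calls of MT-TL1 and MT-TE were kept in all 16 alternatives, and those of the other 3 were lost only without 20% O2 + Doxy replicates 1 and 2.

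At 3% O2 the same contrast called 3 tRNAs higher and 0 lower, against 4.2% higher and 3.11% lower of all genes. At an unadjusted p under 0.05, 4 tRNAs were higher and 0 lower, beside 2225 and 1676 of all 16891 genes. The median over the 16 was 0.58, and 0.22 without 3% O2 wo Doxy replicate 1, which held 2353 tRNA counts where the other two libraries of its group held 1109 and 1519. MT-TL1 went from 3.62, 3.63 and 3.65 CPM to 8.21, 5.71 and 6.48 CPM (0.90, SE 0.129, edgeR adjusted p = 0.002318), and MT-TP from 5.99, 6.60 and 3.94 CPM to 9.17, 8.92 and 11.1 CPM (0.83, SE 0.171, edgeR adjusted p = 0.01559). Without 3% O2 wo Doxy replicate 1 these changes were 0.75 for MT-TL1 and 0.87 for MT-TP, both called, and MT-TA (0.88, edgeR adjusted p = 0.04702) was called higher as well. MT-TL1 and MT-TP were called higher on FDX2 loss at both oxygen levels, although MT-TL1 was not called from the 6 libraries of the 3% O2 groups alone and MT-TP not from those 6 or without 3% O2 wo Doxy replicate 3. MT-TW had 3, 8 and 4 counts with Doxy and 14, 12 and 18 counts without it (1.60, SE 0.383, edgeR adjusted p = 0.02905), and this call from few counts was lost in 9 of 14 alternatives, including without any 1 of the 3% O2 wo Doxy libraries or without 3% O2 + Doxy replicate 1 or 3. In 3% O2 wo Doxy replicate 1, MT-TS1 (24.2 CPM against 7.57 and 6.67 in its group), MT-TY (20.9 against 1.43 and 1.25) and MT-TG (4.18 against 0.0793 and 0.156) stood apart in the same way as MT-ATP8.

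For 3% against 20% O2 with Doxy, 11 of the 16 tRNAs were lower without overlap, as were 6.61% of all genes, and the median change was −0.73 (all genes −0.0045). Calls were made for 3, all lower, beside 0.385% of all genes: MT-TA (−1.63, edgeR adjusted p = 0.01716), MT-TM (−1.07, edgeR adjusted p = 0.04034) and MT-TW (−1.73, edgeR adjusted p = 0.04219). These are rows of few counts, 3 to 86 per library, and their calls were lost in 6 of 16, 11 of 15 and 9 of 15 alternatives. MT-TA was lost without 20% O2 + Doxy replicate 2 or 3 or 3% O2 + Doxy replicate 1 or 3, MT-TW without the same libraries, and MT-TM without any 1 of the libraries compared except 3% O2 + Doxy replicate 3. Without Doxy, 2 of the 16 were called, both lower (11.9% of all genes), with a median of −0.0070, or −0.45 without 3% O2 wo Doxy replicate 1. MT-TM went from 1.38, 1.07 and 1.17 CPM to 0.523, 0.595 and 0.499 CPM (−1.16, SE 0.225, edgeR adjusted p = 0.004061) and was called in all 16 alternatives. MT-TL1 (−0.37, edgeR adjusted p = 0.04942) was no longer called under the replicate block, nor without any 1 of the 6 libraries compared except 3% O2 wo Doxy replicate 1, where it was −0.52. The difference of the FDX2-loss responses was called for MT-TA (1.88, SE 0.428, edgeR adjusted p = 0.02486), from −1.31 at 20% O2 to 0.57 at 3% O2. That call was lost in 9 of 21 alternatives, among them leaving out 20% O2 + Doxy replicate 2, any 1 of the 20% O2 wo Doxy libraries, 3% O2 + Doxy replicate 1 or 3% O2 wo Doxy replicate 2 or 3.

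Nuclear genes supply all proteins that copy, transcribe, process and translate the mitochondrial genome. Of 71 such genes, all tested, 11 rose and 16 fell on FDX2 loss at 20% O2 (median −0.09), near the background of 17.6% higher and 17.7% lower of all genes. Among RNA processing and modification factors (3 of 19 higher, 6 lower), MTO1, which modifies tRNA wobble bases, rose by 0.47 (edgeR adjusted p = 6.103e-05) and ELAC2, which cuts the 3′ ends of tRNAs, changed by −0.73 (edgeR adjusted p = 0.0002009). Among stability factors (2 of 15 higher, 4 lower), GRSF1, a protein of mitochondrial RNA granules, changed by −0.43 (edgeR adjusted p = 0.0001098) and FASTKD5 by −0.48 (edgeR adjusted p = 0.0001284). For transcription (1 of 8 higher, 1 lower), TFB2M, needed for promoter opening, changed by −0.42 (edgeR adjusted p = 0.000263). The translation factors (4 of 14 higher, 1 lower) included MTIF2 at 0.37 and TSFM at −0.44, and the mtDNA maintenance genes (1 of 15 higher, 4 lower) LIG3 at −0.57 and TFAM, which packages mtDNA, at −0.39. Without 20% O2 + Doxy replicates 1 and 2, 17 of the 71 were called.

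Of 74 nuclear subunits of complexes I, III, IV and V, 3 rose and 19 fell on FDX2 loss at 20% O2 (median −0.08), against 17.6% higher and 17.7% lower of all genes. The calls were 3 higher and 10 lower of 37 in complex I, 0 and 1 of 9 in complex III, 0 and 2 of 11 in complex IV and 0 and 6 of 17 in complex V. ATP5F1A, a subunit of ATP synthase, changed by −0.36 (edgeR adjusted p = 6.664e-05), UQCRFS1, the Rieske iron-sulfur protein of complex III, by −0.48 (edgeR adjusted p = 4.825e-05), NDUFB9 by −0.32 and COX5B by −0.29. With a GC correction 7 of the 74 were called higher and 14 lower, and the calls numbered 11 without 20% O2 + Doxy replicates 1 and 2, 13 without 20% O2 wo Doxy replicate 1 and 14 without its replicate 3.

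On FDX2 loss at 3% O2, 5 of the 71 gene-expression genes were called lower and 0 higher. Of all genes, 3.11% were called lower and 4.2% higher. At an unadjusted p under 0.05, 2 of the 71 were higher and 17 lower, beside 2225 and 1676 of all 16891 genes. The 5 called were FASTKD5 (−0.43), FASTKD2 (−0.32), PDE12 (−0.21), TRMT10C (−0.41), a subunit of the mitochondrial RNase P, and LIG3 (−0.32). The count fell to 3 without 3% O2 + Doxy replicate 1 or 2 or 3% O2 wo Doxy replicate 1 or 2, rose to 8 without 3% O2 + Doxy replicate 3, and was 3 with the replicate block, 2 in the 6 libraries compared alone, 9 by DESeq2's Wald test and, with the GC correction, 3 higher and 14 lower. None of the 74 subunits was called by edgeR (1 higher and 6 lower at an unadjusted p under 0.05, and 3 called by DESeq2's Wald test). For 3% against 20% O2 with Doxy edgeR called 0 of either list. DESeq2's Wald test called 2 of the 71 and 0 of the 74. At an unadjusted p under 0.05, 0 were higher and 10 lower of the 71, and 0 and 8 of the 74. At that threshold 1257 of all 16891 genes were higher and 936 lower.

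Without Doxy, 3% against 20% O2 gave 9 higher and 18 lower of the 71 genes, where 13.9% of all genes were called higher and 11.9% lower. METTL15, which methylates the small-subunit rRNA, changed by −0.54 (edgeR adjusted p = 0.0003008), MTO1 by −0.39, MTERF3 by −0.29 and MTRF1, a release factor, by −0.41, while ELAC2 (0.53) and GRSF1 (0.26) rose. Under the replicate block 6 were called higher and 15 lower, and without 20% O2 wo Doxy replicate 3 or 3% O2 wo Doxy replicate 2 the calls numbered 17. Beside the same background, the 74 subunits had 8 called higher and 3 lower (5 and 3 with DESeq2 size factors, 5 and 8 with the GC correction, 4 and 2 under the replicate block), with ATP5F1B (0.15) and NDUFB10 (0.35) among those that rose and NDUFS4 (−0.34) among those that fell. The balance of higher to lower calls turned with the GC correction and in the 6 libraries compared alone (8 higher, 11 lower), and it was even with the block in those 6 (8 and 8) and with at least 10 counts in every library (5 and 5). The count of 11 was 10 without 3% O2 wo Doxy replicate 1 and 4 to 6 without any 1 of the other libraries of this comparison. The difference of the FDX2-loss responses called 2 higher and 6 lower of the 71, and 3 higher and 0 lower of the 74. Beside these, 3.21% of all genes were called higher and 4.08% lower. DESeq2 called 5 of the 74. At an unadjusted p under 0.05, 13 of the 74 were higher and 1 lower, beside 2083 and 1873 of all 16891 genes. With 1 library fewer the calls ran from 0 to 16 of the 71 and from 0 to 4 of the 74, both highest without 3% O2 + Doxy replicate 3. The 8 calls of the 71 changed by more than 1.5 times on omitting any library but 20% O2 + Doxy replicate 3, where 4 were higher and 4 lower, and the 3 of the 74 did not change on omitting that library or 3% O2 wo Doxy replicate 1.

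Nuclear copies of mitochondrial DNA can share reads with these genes. The table had 394 rows of such pseudogenes, of which 68 had a count, and MTND2P28 (6295 to 12945 counts per library) and MTATP6P1 (2557 to 8220) held 98.2% to 99.0% of their counts. MTCO1P12 had a mean of 114 counts, MTCO1P15 11.5 and MTND5P42 7.83. All together they came to 1.35 to 1.87 counts per 100 mitochondrial counts. The treatment of reads with several alignments is not given in the sources used here, so the share of MT-ND2 and MT-ATP6 reads counted on these copies is unknown. MTND2P28, like MT-ND2, read higher in 20% O2 wo Doxy (12647, 12699 and 12945 counts) than in 20% O2 + Doxy (8423, 8607 and 10290), without overlap.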

How the data were processed

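Poly(A)-selected RNA of 12 libraries (4 groups of 3) was sequenced by the authors on DNBSEQ-T7 with paired 150-base reads, and the labels describe the replicates as biological. STAR, featureCounts, DESeq2 and GRCh38 stand in the submitters' processing notes. Tool versions, the handling of strand and of reads with several alignments, and the annotation are not given in the sources used here. The authors deposited raw counts per gene, not normalized and not pooled. For 20% O2 + Doxy replicates 1 and 2 a paired raw file was lost per the labels, and only the counts were used here. All 58735 identifiers matched GENCODE 29, which gave coordinates, lengths and, with the GRCh38 sequence, the printed bases.

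Totals ranged from 24958386 to 34313637 counts, which leaves few tRNA counts, and intervals cover the spread between libraries. Genes were filtered with filterByExpr (minimum count 10, minimum total 15), leaving 16891, scaled by TMM (factors 0.94031 to 1.0714) and fitted with edgeR 4.0.16 (R 4.3.3, limma 3.58.1) as 4 group means, with 8 residual degrees of freedom and Benjamini-Hochberg adjustment over all tested genes. Levels are CPM of the scaled library. The common biological coefficient of variation was 16.3%. Fits were tested on simulated data. Alternatives were DESeq2 1.42.0, its size factors, other filters, a threshold of 0.01, scaling without the mitochondrial rows, a replicate block, left-out libraries, fits to the compared groups alone and, added after seeing the data, a lowess correction for transcript GC content (span 0.3), the block within the 6 libraries compared, and the left-out libraries, compared groups and 0.01 threshold for the nuclear lists, and the tRNAs without 3% O2 wo Doxy replicate 1.

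Every mitochondrial mRNA and rRNA, the tested tRNAs that were called or had the 3 highest means, up to 4 called genes per nuclear list and comparison by the smallest adjusted p, and the 5 most counted pseudogenes were named. The untested tRNAs and those that stood apart in 1 library were named after their values were seen. The members and gene lists were chosen with earlier results of these data known. Same-numbered libraries of 20% O2 wo Doxy and 3% O2 wo Doxy deviated together (correlations 0.363, 0.247 and 0.353), which was taken as pairing. No other pair of groups met that rule. Single correlations between other groups were larger in size. They ran from −0.772 (20% O2 + Doxy replicate 3 with 3% O2 + Doxy replicate 3) to 0.818 (20% O2 + Doxy replicate 1 with 3% O2 + Doxy replicate 3). The replicate block does not account for correlations between different replicate numbers.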

Additional observations from a re-analysis of the deposited data

Results flagged for a closer look

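For 13 of the 176 tested genes looked at (7.39%), edgeR's interaction test called a different FDX2-loss response at 3% O2 than at 20% O2, as for 7.29% of all genes, so the share was that of the background. Each value is the log2 response at 3% O2 minus that at 20% O2, over 3 libraries per group. MT-RNR1 had −0.52 (adjusted p = 0.04614) and MT-TA 1.88 (adjusted p = 0.02486). Among RNA processing and modification genes, METTL15 had −0.47 (adjusted p = 0.01493), MTO1 −0.35 (adjusted p = 0.01921), MRM2, an rRNA methyltransferase, 0.36 (adjusted p = 0.0354), NSUN4 −0.29 (adjusted p = 0.04223) and ELAC2 0.53 (adjusted p = 0.04418). The stability genes FASTKD1 and PDE12 had −0.38 (adjusted p = 0.03925) and −0.28 (adjusted p = 0.04149), and the translation initiation factor MTIF2 had −0.30 (adjusted p = 0.03618). Among subunits, UQCRFS1 had 0.33 (adjusted p = 0.02196), ATP5F1A 0.24 (adjusted p = 0.03252) and ATP5F1B 0.21 (adjusted p = 0.04107). The contrast shares its groups with the other comparisons, and with the replicate block 1 of the 71 gene-expression genes and 0 of the 74 subunits were called for it.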

How the results depend on the processing

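Limits: 3 libraries per group, few tRNA counts, and Doxy confounded with FDX2 state and oxygen with time in culture. In 3% O2 wo Doxy 1 library stood apart by correlation, and others differed from their group by the chi-square. Some libraries of different groups also deviated together, and differences between clones are not covered. Of the log2 changes followed singly, those that passed kept their call in 295 alternative values and lost it in 115, with no change of sign. Those that did not pass kept side and sign in 991, gained a call in 33 and changed sign in 65. The cause was not tested. DESeq2 gave no adjusted p for 1 of the 13 mRNAs, and the compared groups alone give no value for the difference.

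Mitochondrial mRNAs called: on FDX2 loss at 20% O2 2 to 5 with each library left out and 5 with the GC correction; on FDX2 loss at 3% O2 0 to 2 with each library left out; at 3% against 20% O2 with Doxy 0 to 1 with each library left out and 1 each with no filter, by DESeq2's Wald test and with the GC correction; without Doxy 0 to 4 with each library left out, 0 at the 0.01 threshold, and 1 each with DESeq2 size factors, the replicate block and the compared groups alone; for the difference 0 to 2 with each library left out and 2 each by DESeq2 and with the GC correction.

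Of the 71 gene-expression genes, 17 were called on FDX2 loss at 20% O2 without 20% O2 + Doxy replicates 1 and 2. On FDX2 loss at 3% O2 there were 3 to 8 with each library left out, 1 at the 0.01 threshold, 3 with the replicate block, 9 by DESeq2, 17 with the GC correction and 2 in the compared groups alone. With Doxy 0 to 1, 2 by DESeq2 and 7 with the GC correction were called for oxygen, and without Doxy 17 to 26, and 15 at the 0.01 threshold. For the difference there were 0 to 16 with each library left out, 0 at the 0.01 threshold, 2 with no filter, 1 with the replicate block, 14 by DESeq2, 0 without 20% O2 + Doxy replicates 1 and 2 and 21 with the GC correction.

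Of the 74 subunits, FDX2 loss at 20% O2 called 13 to 18 with each library left out, 10 at the 0.01 threshold and 11 without 20% O2 + Doxy replicates 1 and 2. At 3% O2 there were 0 to 1, and 3 by DESeq2. With Doxy 1 was called for oxygen with the GC correction. Without Doxy there were 4 to 10, with 4 at the 0.01 threshold, 7 with no filter, 6 with the replicate block and 19 in the compared groups alone. For the difference there were 0 to 4, with 0 each at the 0.01 threshold, with no filter, with the replicate block and without 20% O2 + Doxy replicates 1 and 2, 1 with at least 10 counts in every library, 5 by DESeq2 and 6 with the GC correction.

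Uncalled log2 changes crossed 0 over the left-out libraries. On FDX2 loss at 20% O2 the ranges were −0.025 to 0.40 for MT-ATP8, −0.14 to 0.036 for MT-CO3, −0.31 to 0.086 for MT-ND3 and −0.0089 to 0.16 for MT-ND4. On FDX2 loss at 3% O2 they were −0.021 to 0.23 for MT-ND2, −0.063 to 0.0037 for MT-CO1, −0.22 to 1.90 for MT-ATP8, −0.31 to 0.022 for MT-ATP6, −0.14 to 0.098 for MT-ND4L, −0.091 to 0.22 for MT-ND4, −0.23 to 0.043 for MT-ND6 and −0.18 to 0.018 for MT-CYB. For oxygen with Doxy they were −0.067 to 0.055 for MT-ND1, −0.015 to 0.082 for MT-CO1, −0.29 to 0.13 for MT-ATP8, −0.045 to 0.068 for MT-ATP6, −0.047 to 0.13 for MT-CO3, −0.071 to 0.33 for MT-ND3 and −0.20 to 0.056 for MT-ND4L. For oxygen without Doxy they were −0.49 to 1.63 for MT-ATP8, −0.23 to 0.10 for MT-ATP6 and −0.076 to 0.23 for MT-ND4. For the difference they were −0.34 to 1.78 for MT-ATP8, −0.24 to 0.093 for MT-ATP6, −0.22 to 0.16 for MT-ND3, −0.16 to 0.15 for MT-ND4, −0.084 to 0.31 for MT-ND5 and −0.062 to 0.13 for MT-CYB.

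Without 20% O2 + Doxy replicates 1 and 2, where 1 library of that group is left and is assumed to vary as the other groups do, the signs of uncalled changes turned. This held on FDX2 loss at 20% O2 for MT-CO2 (−0.027), MT-ATP8 (−0.34), MT-ND4L (−0.047) and MT-ND4 (−0.11), for oxygen with Doxy for MT-CO1 (−0.069), MT-ATP6 (−0.11), MT-CO3 (−0.17), MT-ND3 (−0.35) and MT-ND4 (−0.091), and in the difference for MT-ATP6 (0.090), MT-CO3 (0.033) and MT-ND4L (0.019). With the GC correction MT-ND4L read 0.033 on FDX2 loss at 3% O2 and MT-ATP6 0.029 for oxygen without Doxy, and 0.0069 with the replicate block in the 6 libraries compared as well. MT-ATP6 for oxygen with Doxy read −0.0066 with no filter and −0.00010 by DESeq2. Without the rRNA rows the mean share of 20% O2 wo Doxy was 2.84% and that of 3% O2 + Doxy 2.53%, and over nuclear counts the former was 3.27%.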
